A study of Mus musculus with 6 samples.

Results

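The p53 network was followed in mouse CD4+ T cells with and without a knockout of Wtap, as a list of 34 genes among the 55177 genes to which the deposited transcripts could be assigned. The list holds Trp53, which encodes p53, 5 of its regulators, and genes known as p53 targets. The rule lists the members by name, and the list was drawn up with earlier results of these data known. Genes of the BCL2 family were left out, and the death receptor Eda2r is the one TNF receptor family gene that the list keeps. Wtap is a subunit of the complex that writes N6-methyladenosine (m6A) on mRNA, and the series asked what it does in T cell receptor signalling and T cell survival.

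RNA came from C57BL/6J CD4+ T cells in culture, with 3 libraries labelled wildtype (WT) and 3 labelled Wtap knockout (KO). The labels give the same treatment for both groups: 4-hydroxytamoxifen at 1 µM for 24 h, activation under Th1 conditions with anti-CD3 (1 µg/mL) plus anti-CD28 (2.5 µg/mL) and with IL-12 (10 ng/mL) and anti-IL-4 (10 µg/mL) for 40 to 48 h, then IL-2 at 200 IU/mL until harvest on day 4. The sources used here do not give the Cre line, the deleted exons, the age of the mice or whether libraries came from separate animals. P-values therefore measure the spread between these libraries, part of which may be technical. Libraries held between 32363139 and 44039467 estimated counts. Values below are CPM, the estimated counts scaled to a common library size after TMM normalization between libraries, unless another scale is named.

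p53 is a transcription factor that is held at a low level by the ubiquitin ligase Mdm2 and its relative Mdm4. DNA damage and other stress release it, and it then turns on genes that stop the cell cycle, repair DNA, restrain growth signalling and metabolism, or promote cell death. Many of its targets, Mdm2 among them, act back on p53 itself. In activated T cells the network limits the expansion of dividing cells.

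Total Wtap mRNA did not separate the groups, with 94.3 to 114 CPM in WT and 114 to 120 CPM in KO (log2 fold change 0.16 ± 0.10 SE, edgeR adjusted p = 0.371). The share of Wtap counts assigned to the transcript Wtap-205 lay between 47.4% and 55.8% in WT and between 8.83% and 11.0% in KO. KO 3 stood apart in sex-linked transcripts, with 63.3 CPM of the Y-linked gene Kdm5d against 2.43 to 3.53 CPM in the other libraries. Xist had 3.81 CPM in KO 3, 1980 and 2162 CPM in KO 1 and KO 2, and 3160 to 4448 CPM in WT. The part of this difference in the results was not tested, though fits without KO 3 are given below. Summed TPM (a level that corrects for transcript length) of 10 CD4 T cell markers was 3724 to 4097 in WT and 3162 to 3480 in KO, and 2 of them, Cd3g and Cd4, were lower. Of 10 dendritic cell markers, 8 were tested and 3 (H2-Aa, Batf3 and Cd74) were higher, with a summed TPM of 11.8 to 37.7 in WT and 45.1 to 60.4 in KO. H2-Ab1 went the other way without passing, at 30.3, 7.22 and 6.13 TPM in WT and 7.38, 8.35 and 7.09 TPM in KO (log2 -0.92), and it made up most of the WT 1 sum. Zbtb46, Itgax, Flt3, Xcr1, Clec9a and Siglech stayed under 0.5 TPM in all libraries. The pair of CD8 T cell markers summed to 7.18 to 7.79 TPM in WT and 11.4 to 13.9 TPM in KO, and 1 of them, Cd8b1, was higher. B cell markers summed to at most 4.41 TPM, macrophage and monocyte markers to at most 4.76 TPM and erythroid and platelet markers to at most 15.1 TPM. NK cell markers summed to 0.536 to 1.61 TPM in WT and 1.73 to 2.91 TPM in KO, and granulocyte markers to 0.107 to 0.227 TPM in WT and 0.233 to 0.761 TPM in KO, with S100a9 at 0 in every library. No marker of these 5 lists passed the test, and none of the granulocyte markers had enough reads to be tested. The part of these markers in the results below was not tested.

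Most p53 network genes that differed between the groups were higher in KO. Of the 33 members with enough reads to be tested, 10 rose, 2 fell and 21 did not pass, where 9.23% of all genes tested were called in either direction (edgeR quasi-likelihood test, Benjamini-Hochberg adjusted p under 0.05 over 17610 genes). The share that rose was 30.3%, beside 5.75% of all genes tested, and the share that fell was 6.06%, beside 3.49%. The risen genes were Hipk2, Dapk1, Cdkn1a, Sesn2, Phlda3, Eda2r, Zmat3, Aen, Polk and Ercc5, and the fallen genes were Mdm4 and Sesn1. The median log2 fold change of the 33 members was 0.38, and that of all genes tested was -0.000578. Log2 fold changes were above 0 for 25 of the 33 members. KO libraries lay above every WT library for 15 members, against 17.2% of all genes tested, and below every WT library for 3 members, against 15.5%. In bulk RNA a change in the number of cells that express a gene cannot be told apart from a change in RNA per cell.

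**Figure D1:**
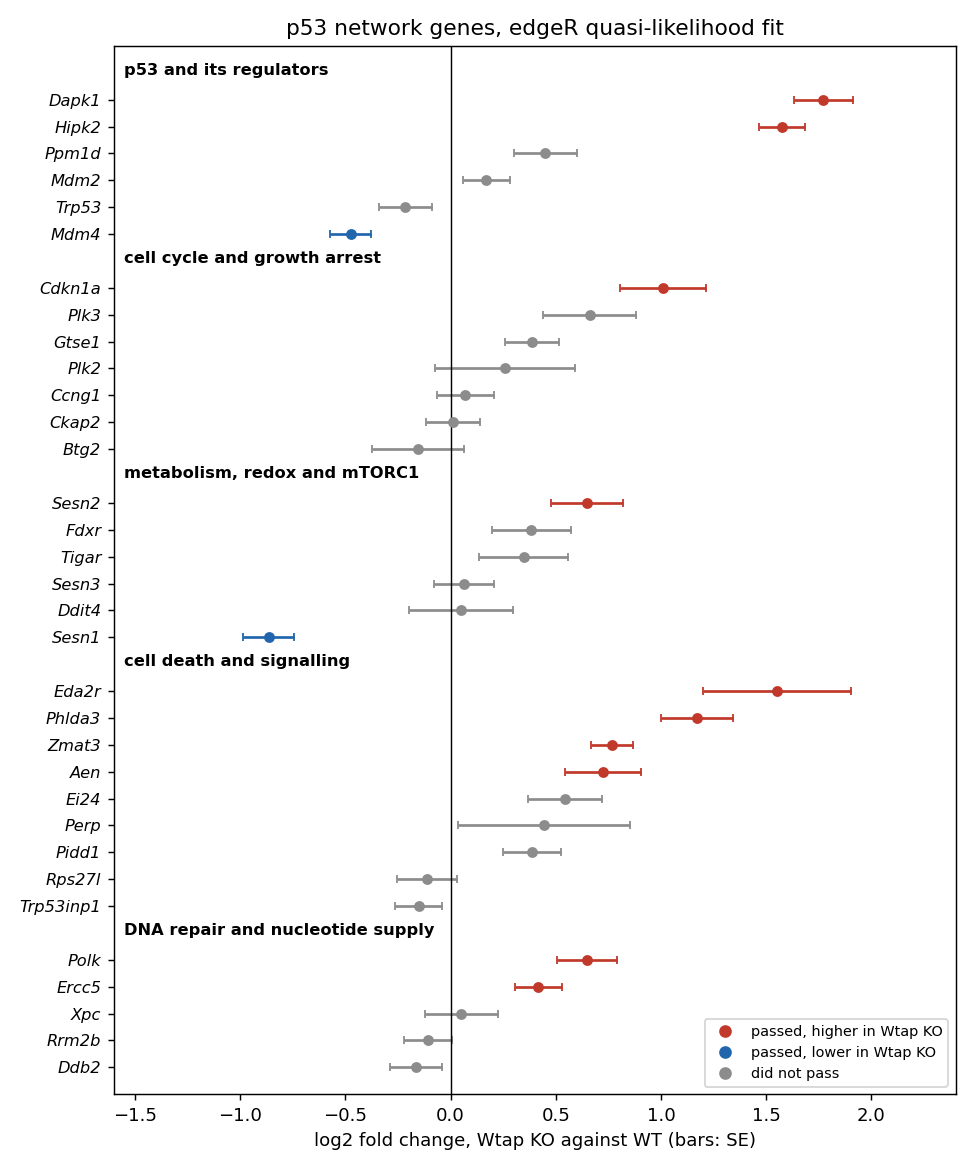
Log2 fold change of KO against WT (x axis) for the 33 tested p53 network genes, grouped by role and ordered by size within each role; points are edgeR estimates and bars are standard errors. Most points lie right of 0, with Dapk1 (1.77) and Hipk2 (1.58) farthest, and the genes lower in KO that passed are Mdm4 and Sesn1.

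The calls differed in how much they leaned on single libraries. Leaving out each library in turn, Hipk2, Dapk1, Zmat3, Phlda3 and Sesn1 passed in all 6 fits, and the other 7 called members were lost in at least 3 fits. The number of members called higher was 14 without WT 1, 10 without WT 3 and 4 without any one of WT 2, KO 1, KO 2 or KO 3. Over all genes, the count of calls also moved, from 1626 with 6 libraries to between 361 (without KO 2) and 2282 (without WT 1). No called member changed direction in any of the 202 values from the alternatives tried. A reversal was hardly possible, because the groups of every called member did not overlap and all alternatives used the same libraries. Without KO 3, the library that stood apart in sex-linked genes, 4 members were called higher and 2 lower.

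**Figure D2:**
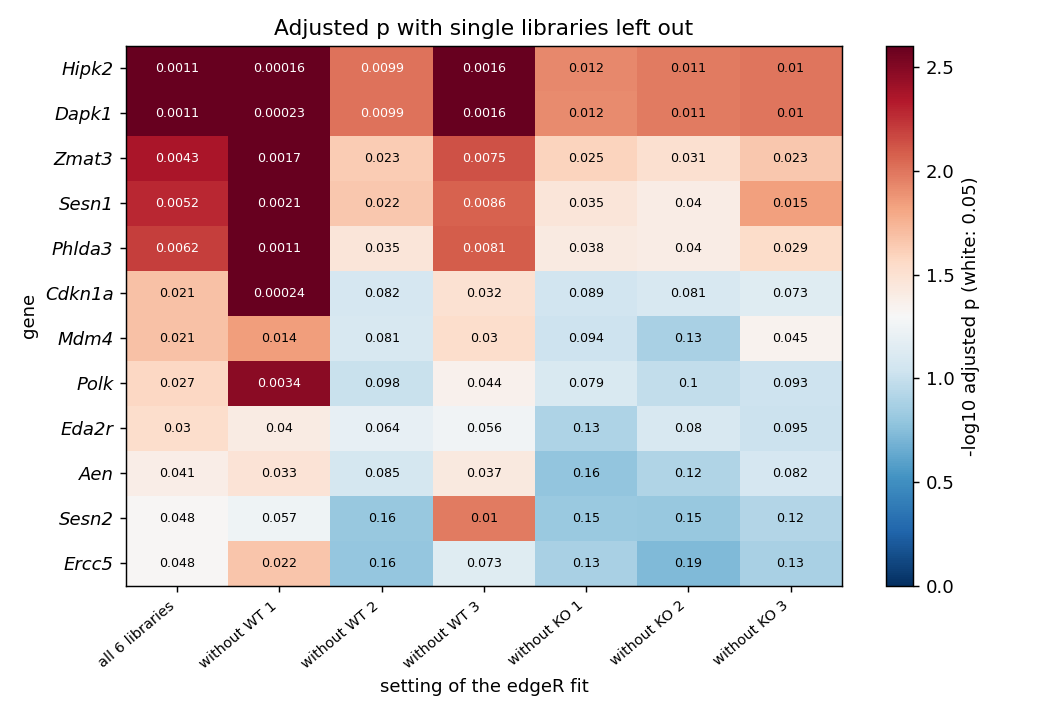
Adjusted p of the 12 called genes (rows) with all 6 libraries and with each library left out (columns); the colour is -log10 of the adjusted p, white at 0.05, red for genes that pass and blue for genes that do not. The upper 5 genes stay red in every column, and Ercc5 (0.0481 with all libraries) turns blue in most.

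p53 itself was not called different, while the kinases Hipk2 and Dapk1 gave the differences with the lowest p of the network. Of the 6 genes in the group of p53 and its regulators, 2 rose, 1 fell and 3 did not pass. The shares that rose and fell were 33.3% and 16.7%, beside 5.75% and 3.49% of all genes tested. Hipk2, a nuclear kinase that phosphorylates p53 and favours its death programme, had 32.1, 28.0 and 29.6 CPM in WT and 96.4, 86.8 and 84.4 CPM in KO. The groups were far apart, and the fold change was 2.98 (log2 1.58 ± 0.11 SE, edgeR adjusted p = 0.00108). By its p it stood at rank 2 of all genes tested. Dapk1, a calmodulin-regulated death-associated kinase that acts upstream of p53, had 5.28, 4.72 and 4.94 CPM in WT and 17.4, 17.9 and 15.8 CPM in KO. Every KO library was above every WT library, and the fold change was 3.41 (log2 1.77 ± 0.14 SE, edgeR adjusted p = 0.00108). On the log2(TPM + 1) scale the Dapk1 difference was 1.10, since that scale understates changes of low values.

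Mdm4, the inhibitor that binds p53 and blocks its activity, was lower. Its values were 229, 231 and 227 CPM in WT and 167, 151 and 176 CPM in KO. The WT libraries were nearly equal and the KO libraries all lay below them, a fold change of 1.39 downwards (log2 -0.47 ± 0.10 SE, edgeR adjusted p = 0.0209). The call was lost without WT 2 (adjusted p = 0.0809), KO 1 (0.0940) or KO 2 (0.131), and with an offset for transcript length (0.0502). Reads assigned to Mdm4-ps, the annotated pseudogene of Mdm4, reached at most 0.310 CPM. Mdm2, the ubiquitin ligase that is both the main brake and a target of p53, had 126, 105 and 108 CPM in WT and 117, 129 and 135 CPM in KO. Its groups overlapped (log2 0.17 ± 0.11 SE, edgeR adjusted p = 0.380). Most Mdm2 counts, 70.3% in WT and 70.2% in KO, were assigned to Mdm2-209, a transcript annotated as a target of nonsense-mediated decay.

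Trp53 mRNA was 119, 135 and 159 CPM in WT and 127, 117 and 111 CPM in KO. The groups overlapped, with a log2 fold change of -0.22 ± 0.13 SE (edgeR adjusted p = 0.325). Ppm1d, the Wip1 phosphatase that p53 induces and that removes activating phosphates from p53 and its kinases, had 37.8, 30.8 and 34.8 CPM in WT and 38.5, 49.2 and 53.7 CPM in KO. KO libraries lay above WT libraries, but the gene did not pass (log2 0.45 ± 0.15 SE, edgeR adjusted p = 0.0916). It passed without WT 1, the highest WT library (adjusted p = 0.0464). The mRNA tables say nothing of p53 protein or its modifications.

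Among the cell cycle genes, the cyclin-dependent kinase inhibitor Cdkn1a rose about 2-fold and was the only one of 7 to pass. The share that rose was thus 14.3%, beside 5.75% of all genes tested. Cdkn1a encodes p21, the best known p53 target, which stops cells before DNA replication. Its promoter held the one full match to the p53 consensus found among the members. The window before its annotated start, chr17:29090729-29090978 on the plus strand (GRCm38.p6, RefSeq), is shown because it carries that match, with the pair of half-sites in capitals.
Cdkn1a promoter: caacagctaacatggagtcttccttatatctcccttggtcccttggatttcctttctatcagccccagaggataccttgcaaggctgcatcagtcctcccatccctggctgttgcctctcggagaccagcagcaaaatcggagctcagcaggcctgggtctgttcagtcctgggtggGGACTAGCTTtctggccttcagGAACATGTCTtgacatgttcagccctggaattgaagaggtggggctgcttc
The match lies 73 to 42 bases before the start of that window's RefSeq entry, with 12 bases between the half-sites. This start is at the upstream end of the gene (29090976), and which of its 5 annotated transcripts begin there was not examined. Its second half-site is followed directly by tgacatgttc, left in lower case, which departs from the consensus only at its first base. These letters form a further pair, with 1 mismatch and without bases between.

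The scan used the standard p53 half-site consensus of 10 bases, which reads as its own reverse complement and so covers both strands, with up to 13 bases between a pair. RefSeq promoter windows of 300 bases, 250 before and 50 after each start, were at hand for 28 of the 34 members, with 37 windows, and not for Xpc, Perp, Zmat3, Rrm2b, Ddb2 and Trp53inp1. A full match stood in 1 of the 37 windows (2.70%) and in 24 of all 32851 windows (0.073%). With up to 1 mismatch the count was 4 of 37 (10.8%) against 206 of all windows (0.627%). At least 1 half-site stood in 13 member windows (35.1%) and in 8.36% of all windows. Most members were listed as known p53 targets, so higher shares come with the choice of genes and say nothing of the Wtap knockout. Only the best site of each window was listed. Besides that of Cdkn1a, the 3 windows with a site at up to 1 mismatch belong to Ccng1 (chr11:40755462-40755481, minus strand), Gtse1 (chr15:85859945-85859964, plus strand) and Rps27l (chr9:66946296-66946315, plus strand). Their best sites, each with 1 mismatch, are printed to set these letters beside the Cdkn1a site. Both half-sites of each are in capitals and follow each other directly.
Ccng1 site: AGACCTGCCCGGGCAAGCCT
Gtse1 site: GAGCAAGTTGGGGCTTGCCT
Rps27l site: GGGCTTGTTGAGACTTGTCC
Of these 4 genes, Cdkn1a alone passed the expression test, and log2 fold changes were 0.07 for Ccng1, 0.39 for Gtse1 and -0.11 for Rps27l. A match describes letters in a window and does not show binding, and sites in introns or farther upstream were not searched.

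Cdkn1a mRNA was 25.7, 15.3 and 14.8 CPM in WT and 37.3, 37.3 and 37.8 CPM in KO. WT 1 was higher than the other WT libraries, and all KO libraries lay above it (fold change 2.01, log2 1.01 ± 0.20 SE, edgeR adjusted p = 0.0208). Without WT 1 the log2 fold change was 1.31, and the call was lost without WT 2 (adjusted p = 0.08225), KO 1 (0.08855), KO 2 (0.0812) or KO 3 (0.0726). Gtse1, a protein of dividing cells that carries p53 out of the nucleus, had 41.8, 32.9 and 34.8 CPM in WT and 50.2, 49.8 and 43.3 CPM in KO. The groups did not overlap, though the gene did not pass (log2 0.39 ± 0.13 SE, edgeR adjusted p = 0.0938) unless WT 1 was left out (0.0198). Plk3, a stress-responsive polo-like kinase, had 2.38, 3.09 and 2.78 CPM in WT and 5.32, 4.28 and 3.45 CPM in KO. These low values did not overlap and did not pass either (log2 0.66 ± 0.22 SE, edgeR adjusted p = 0.0979).

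The remaining 4 cell cycle genes overlapped between groups. Ccng1, which encodes cyclin G1 and is among the most abundant members, had 395, 333 and 310.4 CPM in WT and 307, 385 and 398 CPM in KO (log2 0.07 ± 0.14 SE, edgeR adjusted p = 0.798). Btg2, an antiproliferative gene, averaged 248 ± 88.5 CPM in WT and 223 ± 2.44 CPM in KO (SD, n = 3), the WT values running from 171 to 345 CPM. The wide WT spread covers the KO values (log2 -0.15 ± 0.22 SE, edgeR adjusted p = 0.714). Plk2, another polo-like kinase, had 6.88, 2.72 and 2.97 CPM in WT and 4.85, 5.11 and 5.11 CPM in KO (log2 0.26 ± 0.33 SE, edgeR adjusted p = 0.680). WT 1 alone lay above the KO libraries, and without it Plk2 passed (adjusted p = 0.0202). Ckap2, a spindle protein, averaged 67.7 ± 10.5 CPM in WT and 68.3 ± 3.76 CPM in KO (SD, n = 3; log2 0.01 ± 0.13 SE, edgeR adjusted p = 0.973).

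The 3 sestrins, stress proteins that restrain the growth kinase mTORC1, did not move together. Sesn1 fell, Sesn2 rose and Sesn3 did not pass. Sesn1 mRNA was 90.3, 87.3 and 102 CPM in WT and 46.6, 49.2 and 57.8 CPM in KO. No library overlapped, and the level was 1.82-fold lower in KO (log2 -0.86 ± 0.12 SE, edgeR adjusted p = 0.00522). Sesn2 mRNA was 8.20, 8.16 and 11.7 CPM in WT and 14.7, 14.4 and 14.9 CPM in KO. KO libraries were close to each other and above all WT libraries (fold change 1.57, log2 0.65 ± 0.17 SE, edgeR adjusted p = 0.0478). That call sat at the threshold: it was kept without WT 3 (0.0105) and lost without WT 1 (0.0574), WT 2 (0.157), KO 1 (0.151), KO 2 (0.155) or KO 3 (0.121). It was also lost with DESeq2's size factors in edgeR (0.0509). Sesn3 had 379, 349 and 380.1 CPM in WT and 331, 351 and 476 CPM in KO, which overlap (log2 0.06 ± 0.14 SE, edgeR adjusted p = 0.831). Per transcript length, Sesn3 stood at 41.7 ± 2.06 TPM in WT and 45.7 ± 9.26 TPM in KO, Sesn1 at 36.25 ± 2.30 and 20.7 ± 2.75 TPM, and Sesn2 at 2.69 ± 0.520 and 4.39 ± 0.213 TPM (SD, n = 3). The sestrin that rose was thus the least abundant of the 3 in both groups.

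Of the other metabolic members none passed. In this group of 6, 1 rose and 1 fell (16.7% each, beside 5.75% and 3.49% of all genes tested). Ddit4 (REDD1), another inhibitor of mTORC1, had 30.1, 28.7 and 57.3 CPM in WT and 40.2, 42.7 and 37.3 CPM in KO (log2 0.05 ± 0.25 SE, edgeR adjusted p = 0.931). Its WT 3 value was well above the other WT libraries, and without it the gene passed (log2 0.445, adjusted p = 0.0478). Tigar, a phosphatase that lowers glycolytic flux, averaged 8.37 ± 2.36 CPM in WT and 10.6 ± 0.579 CPM in KO (SD, n = 3; log2 0.35 ± 0.21 SE, edgeR adjusted p = 0.346). Fdxr, the mitochondrial ferredoxin reductase, averaged 7.76 ± 1.88 CPM in WT and 10.1 ± 0.532 CPM in KO (SD, n = 3; log2 0.38 ± 0.19 SE, edgeR adjusted p = 0.234), and it passed without WT 3 (0.0431).

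Of the 9 tested cell death and signalling genes, 4 rose (44.4%, beside 5.75% of all genes tested) and none fell, with 2 of the 9 at log2 fold changes below 0. The risen genes were Phlda3, Eda2r, Zmat3 and Aen. Phlda3, which binds membrane phosphoinositides and restrains AKT, had 6.88, 5.56 and 4.69 CPM in WT and 12.9, 13.004 and 12.7 CPM in KO. The KO libraries were nearly equal and all above WT (fold change 2.25, log2 1.17 ± 0.17 SE, edgeR adjusted p = 0.00624). Zmat3, an RNA-binding zinc finger protein that p53 uses to alter splicing, had 137, 137 and 119 CPM in WT and 215, 218 and 234 CPM in KO. It was the most abundant of the risen members by CPM and by TPM (16.8 ± 1.66 TPM in WT and 29.6 ± 1.92 TPM in KO, SD, n = 3), and its groups were well apart (fold change 1.70, log2 0.77 ± 0.10 SE, edgeR adjusted p = 0.00431).

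Eda2r, a receptor for ectodysplasin on the X chromosome, had 0.249, 0.313 and 0.164 CPM in WT and 0.787, 0.565 and 0.775 CPM in KO. The groups did not overlap, at a mean of 18.8 estimated counts per library (fold change 2.93, log2 1.55 ± 0.35 SE, edgeR adjusted p = 0.0298). The call was lost without WT 2 (0.0638), WT 3 (0.0562), KO 1 (0.126), KO 2 (0.0804) or KO 3 (0.0955), and was kept without WT 1 (0.0395). Aen, an exonuclease that cuts DNA during apoptosis, had 9.14, 13.3 and 13.1 CPM in WT and 22.6, 18.5 and 17.8 CPM in KO. All KO libraries were above WT (fold change 1.65, log2 0.72 ± 0.18 SE, edgeR adjusted p = 0.0412), and the call was lost without WT 2 (0.08475), KO 1 (0.164), KO 2 (0.122) or KO 3 (0.0818). Corrected for the length of its transcripts, the log2 fold change of Aen was larger, 1.13.

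Among the other death and signalling genes, 5 were tested and did not pass. Ei24, a membrane protein of the endoplasmic reticulum, had 8.76, 9.66 and 6.54 CPM in WT and 11.2, 11.97 and 13.2 CPM in KO. Its groups did not overlap (log2 0.54 ± 0.18 SE, edgeR adjusted p = 0.0876), and DESeq2 called it (adjusted p = 0.0446). Pidd1, the scaffold of the PIDDosome that activates caspase-2, had 12.9, 10.3 and 11.5 CPM in WT and 15.6, 15.2 and 14.6 CPM in KO. It did not overlap either (log2 0.39 ± 0.14 SE, edgeR adjusted p = 0.117) and passed without WT 1 (0.04955). Transcripts annotated as protein coding held 0% of Pidd1 counts in every WT library and 0%, 0% and 2.91% in KO. Perp, a membrane protein of cell contacts, had 5.39, 2.91 and 1.34 CPM in WT and 4.22, 4.82 and 4.07 CPM in KO. WT values were spread widely around the KO values (log2 0.44 ± 0.41 SE, edgeR adjusted p = 0.545), and the gene passed without WT 1 (0.0497).

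Trp53inp1, a nuclear stress protein that assists p53, was the most abundant member by CPM, at 668, 652 and 583 CPM in WT and 508, 571 and 633 CPM in KO. Its groups overlapped (log2 -0.15 ± 0.11 SE, edgeR adjusted p = 0.444). Rps27l, a ribosomal-protein-like target of p53, had 90.6, 64.9 and 72.2 CPM in WT and 61.8, 75.7 and 73.3 CPM in KO (log2 -0.11 ± 0.14 SE, edgeR adjusted p = 0.684). Per length it was the most abundant member, with 202 ± 43.1 TPM in WT and 193 ± 20.5 TPM in KO (SD, n = 3), and these overlap. Gdf15, a secreted stress hormone, averaged 1.00 estimated count per library and reached at most 0.0737 CPM, too few reads to be tested.

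**Figure D3:**
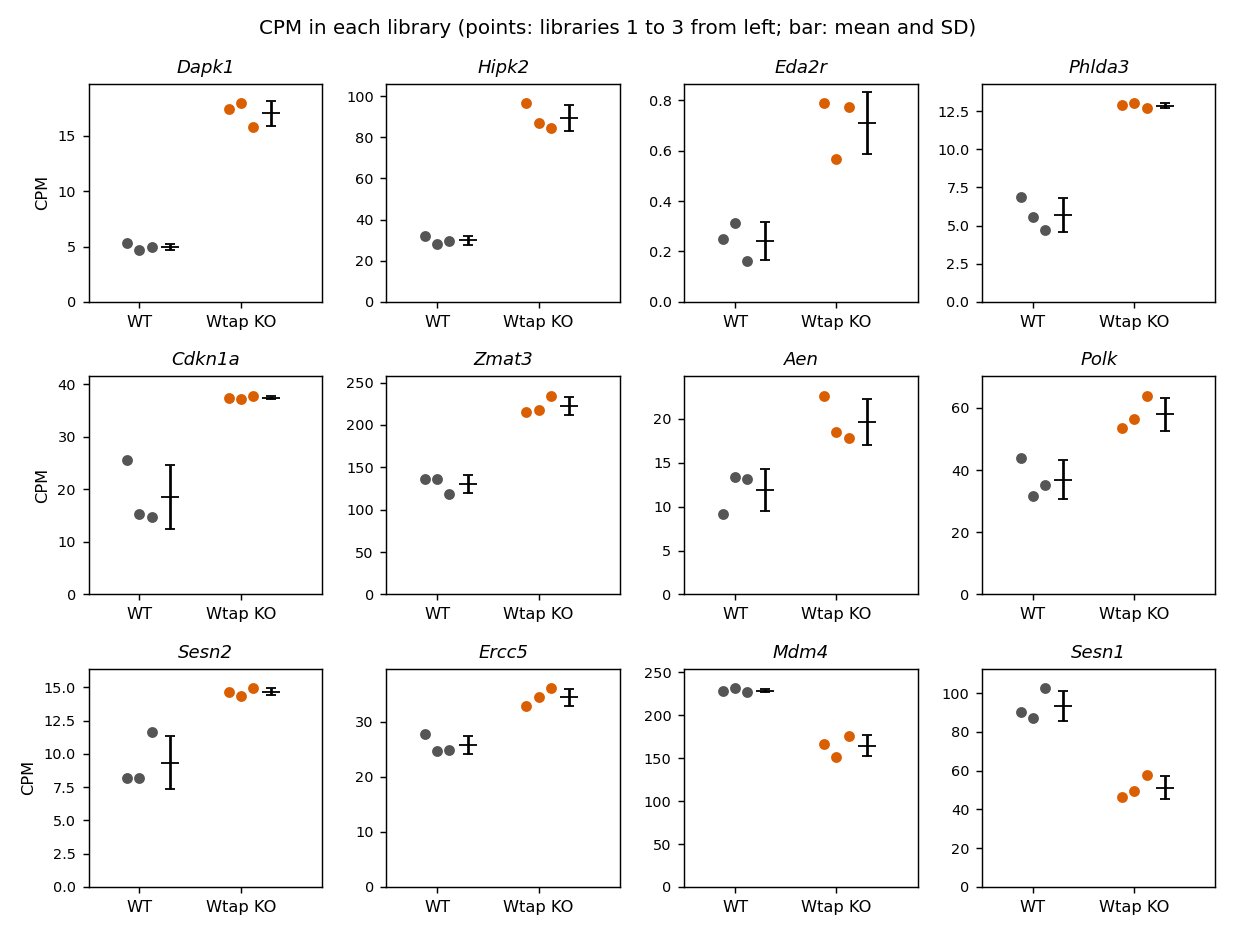
CPM of the 12 called genes in each library (y axis, from 0), WT in grey and KO in orange with libraries 1 to 3 from left to right; the bar beside each group is mean and SD. In each panel the groups do not overlap; Mdm4 and Sesn1 are lower in KO, and WT 1 is the highest WT library for Cdkn1a (25.7) and Polk (43.8).

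Among the DNA repair genes, Polk and Ercc5 rose (40.0%, beside 5.75% of all genes tested) and the other 3 of 5 did not pass. Polk, a polymerase that copies past damaged bases, had 43.8, 31.5 and 35.4 CPM in WT and 53.5, 56.4 and 63.9 CPM in KO. Every KO library was above WT (fold change 1.57, log2 0.65 ± 0.14 SE, edgeR adjusted p = 0.0268), with the call lost without WT 2 (0.0975), KO 1 (0.0787), KO 2 (0.1045) or KO 3 (0.0935). Ercc5 (XPG), an endonuclease of nucleotide excision repair, had 27.7, 24.8 and 24.9 CPM in WT and 32.9, 34.5 and 36.1 CPM in KO. The groups did not overlap and the difference was small (fold change 1.34, log2 0.42 ± 0.11 SE, edgeR adjusted p = 0.0481). Ercc5 kept its call without WT 1 (0.0217) and lost it without WT 2 (0.161), WT 3 (0.0726), KO 1 (0.133), KO 2 (0.188) or KO 3 (0.131), and it passed in 4 of the 17 alternatives in all. Losses ranged from upper-quartile scaling (0.0513) and DESeq2's size factors (0.0542) through the length offset (0.0818) and no filter on low counts (0.0921) to limma on log2(TPM + 1) without a filter (0.180).

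The damage sensors of the same repair pathway did not pass. Ddb2 had 54.7, 57.4 and 67.9 CPM in WT and 49.5, 52.0 and 59.3 CPM in KO (log2 -0.16 ± 0.12 SE, edgeR adjusted p = 0.450). It shares 652 exonic bases with Acp2 on the opposite strand, which averaged 8.06 CPM (scaled to the plain library total). As the strand setting of the counting is not given, reads from the shared bases cannot be assigned with certainty. Xpc averaged 7.48 ± 1.27 CPM in WT and 7.75 ± 0.615 CPM in KO (SD, n = 3; log2 0.05 ± 0.17 SE, edgeR adjusted p = 0.890). Rrm2b, the p53-induced subunit of ribonucleotide reductase, had 20.8, 21.2 and 21.7 CPM in WT and 18.5, 20.2 and 20.4 CPM in KO. Its KO libraries lay just below the WT libraries, a difference that did not pass (log2 -0.11 ± 0.11 SE, edgeR adjusted p = 0.609).

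**Figure D4:**
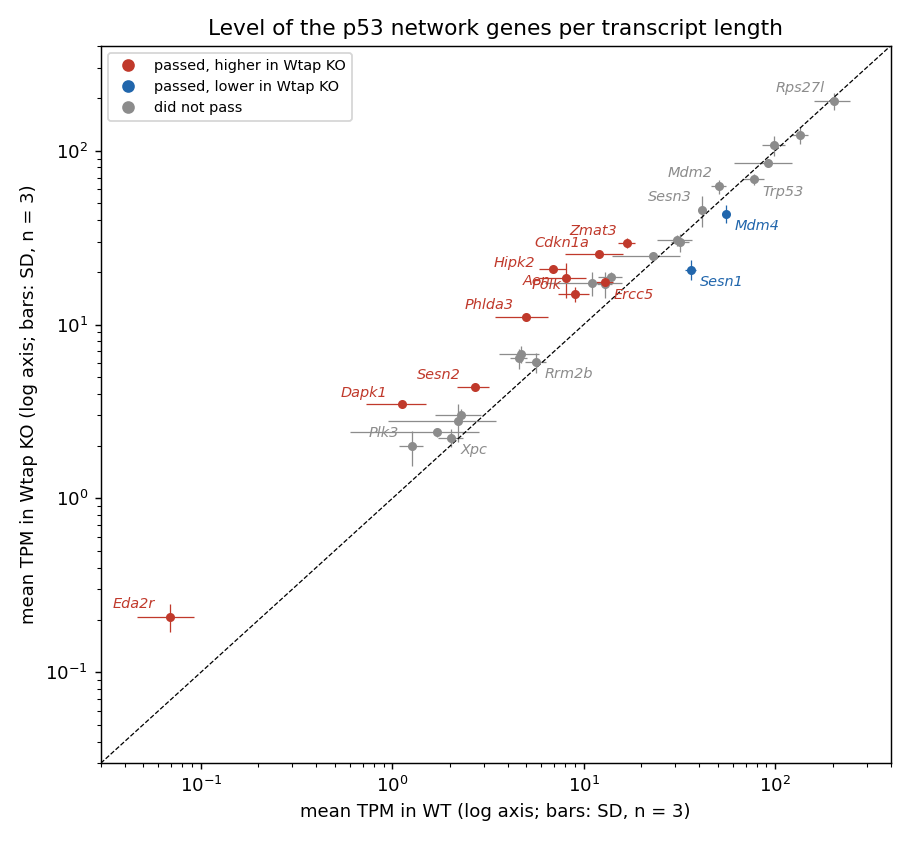
Mean TPM, a level per transcript length, in KO (y axis) against WT (x axis) for the 33 tested members on log axes; bars are SD over 3 libraries and the dashed line marks equal levels. Called genes span the range from Eda2r (0.0694 TPM in WT) to Mdm4 (55.2 TPM in WT), and members above Mdm4 in level, Trp53 (77.2 TPM in WT) and Rps27l among them, lie near the line.

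Levels per length ordered the members from Rps27l down to Gdf15. In WT, Rps27l (202 TPM) was followed by Trp53inp1 (134 ± 13.7 TPM), Ccng1 (99.0 ± 14.1 TPM), Btg2 (91.2 ± 30.6 TPM) and Trp53 (77.2 ± 9.88 TPM). From Ccng1 to Trp53 the ranges of mean ± SD of neighbours overlapped. Mdm4 (55.2 ± 1.65 TPM) and Mdm2 (50.6 ± 4.57 TPM) came next and were close. In KO the order of this pair was the other way round, with Mdm4 at 43.4 ± 5.24 TPM and Mdm2 at 62.3 ± 5.61 TPM. The ratio of the pair was not tested.

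Since Wtap acts on mRNA, the split of each gene between its transcripts was compared as well. For 26 members with at least 2 transcripts of at least 10 mean estimated counts, 98 transcripts were tested for their share of the gene (limma on log2 of the transcript's count over that of the rest of its gene). Only Aen-203 passed (log2 ratio difference -2.27 ± 0.28 SE, limma adjusted p = 0.0458). Over the whole table, 0.349% of 39284 transcripts and 1.06% of 9392 genes had a call. Aen-203 took 65.7%, 55.7% and 54.8% of Aen counts in WT and 18.5%, 24.3% and 26.0% in KO. The groups were far apart, but the adjusted p was 0.0522 with a pseudocount of 0.1 in place of 1 and lay between 0.0860 and 0.193 when any one of the 6 libraries was left out, KO 2 giving the highest value. Without WT 2 it was Aen-202, another transcript of the gene, that passed (limma adjusted p = 0.0408).

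The level of Aen-203 differed less than its share. It had 1.21, 1.50 and 1.41 TPM in WT and 0.879, 0.898 and 0.980 TPM in KO. Aen-201 had 1.12, 1.53 and 1.465 TPM in WT and 4.61, 3.58 and 3.60 TPM in KO, and its share went from 22.5 ± 0.752% to 37.5 ± 0.352% (SD, n = 3), which did not pass the usage test (limma adjusted p = 0.0971). Aen-202 had a share of 1.02 ± 1.76% in WT and 14.2 ± 2.15% in KO (SD, n = 3; limma adjusted p = 0.218). In the annotation (GRCm38, GENCODE vM21) these transcripts share the start of their last exon, chr7:78907144, and differ in its end. Aen-201 ends at 78908381 after 1238 bases of last exon, and Aen-203 at 78911209 after 4066 bases. The letters AATAAA, the polyadenylation signal, stand 23 and 19 bases before the respective ends.

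Grouped by that end, a grouping made after the values were seen and given without a test, the short end (Aen-201 and Aen-202) held 23.4%, 25.1% and 22.2% of Aen counts in WT and 50.5%, 54.2% and 50.1% in KO. Aen-203 and Aen-204, which have the long end, held 68.2%, 62.5% and 59.8% in WT and 28.8%, 30.6% and 32.5% in KO. In estimated counts, the short end had 77.5 to 107 in WT and 402 to 435 in KO, while the long end had 226 to 288 in WT and 230.2 to 261 in KO. Counts for the long end thus overlapped between the groups, and those for the short end did not. The extension that only the long end holds, chr7:78908382-78911209, is 2828 bases long and contains 4 copies of GGACT, letters that fit the m6A consensus. Aen-201 and Aen-203 also differ in the start of exon 2 (78902344 and 78902230), and reads that fit several transcripts were split between them by kallisto, so the shares are estimates. The tables do not give the error of that split.

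**Figure D5:**
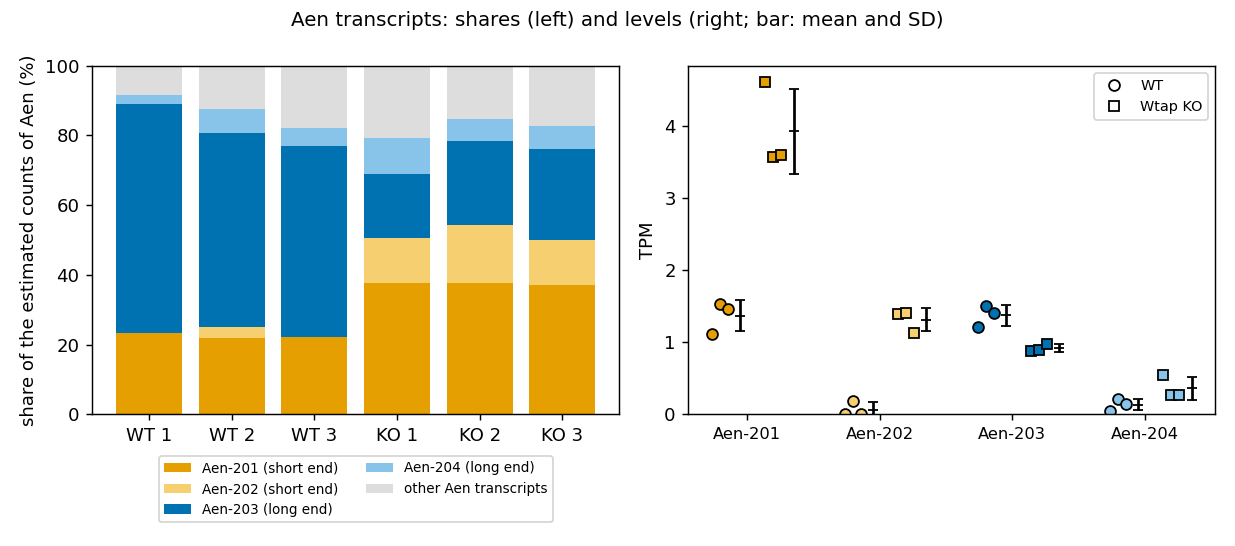
Left, share of Aen estimated counts (%, y axis) by transcript in each of the 6 libraries, with short-end transcripts in orange tones, long-end transcripts in blue tones and the rest in grey; right, TPM of the same 4 transcripts (circles WT, squares KO, bar mean and SD, n = 3). Orange takes 22.2% to 25.1% of each WT column and 50.1% to 54.2% of each KO column, and Aen-201 is above 3.5 TPM in all KO libraries.

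Of the other called genes, 9 had transcripts in the usage test and none of these passed, while Sesn2 and Eda2r were not tested for usage. On simulated data the usage test recovered few of the changed transcripts, so the lack of a call does not show that usage was unchanged. The leading transcript moved in the direction of its gene. By mean TPM it was the same transcript in both groups for Cdkn1a-201 (8.57 in WT, 17.6 in KO), Zmat3-201 (16.0 and 28.8), Phlda3-201 (3.90 and 9.28), Polk-201 (8.58 and 13.8), Ercc5-201 (4.93 and 7.08), Sesn2-201 (2.69 and 4.39), Eda2r-201 (0.0361 and 0.117) and Sesn1-201 (35.8 and 20.4). For Aen it was Aen-206, annotated as a processed transcript, at 2.31 and 4.66 TPM. Hipk2-207 went from 2.74 to 8.05 TPM, and Hipk2-206, which is longer and held more of the counts, from 1.97 to 6.89 TPM. Mdm4-210 went from 28.7 to 20.9 TPM and Dapk1-201 from 0.453 to 1.79 TPM. The estimated share of Plk3-201 was 31.1%, 14.5% and 14.4% in WT and 63.4%, 59.4% and 100.0% in KO, without overlap. At a mean of 73.99 counts it did not pass (limma adjusted p = 0.449).

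GGACT was counted in the transcript with the highest mean count of each gene, as a description of sequence. The median was 1.10 copies per kb of transcript in the 33 tested members and 0.971 in all genes tested. It was 1.26 in the 10 risen members, 0.615 in the 2 fallen and 1.10 in the 21 that did not pass. All 10 risen members had at least 1 copy, as did 83.6% of all genes tested and 92.0% of the 1012 genes called higher, whose median was 1.16 copies per kb. The median transcript length was 4488 bases in the risen members, 2845 bases in all genes called higher and 2486 bases in all genes tested, and no test was made of these differences. A copy of these letters does not show that a site is methylated.

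A further list of 40 p53 targets outside the 34 gave 39 tested genes, of which 6 rose (15.4%, beside 5.75% of all genes) and none fell by edgeR at the adjusted threshold. This list too was drawn up with earlier results of these data known, so it is not an independent set. At an unadjusted edgeR p under 0.05 the counts were 11 higher and 1 lower. Of all 17610 genes tested, 1626 passed and a further 3002 had only such an unadjusted p, in either direction. DESeq2 called 8 of the list higher and 0 lower, and 1312 higher and 1184 lower of the 17806 genes it tested. The median log2 fold change was 0.25. Dyrk3, a kinase that dissolves stress granules, went from 5.65 to 16.5 CPM on average (log2 1.54, edgeR adjusted p = 0.0117). Notch1, the receptor that T cells use in development and activation, went from 75.5 to 121 CPM (log2 0.68, edgeR adjusted p = 0.0163). Sco2, a copper chaperone of the respiratory chain, went from 1.26 to 5.83 CPM (log2 2.20, edgeR adjusted p = 0.0225). The others were Trim21, a ubiquitin ligase that binds antibodies (log2 0.54, adjusted p = 0.0171), Parm1 (log2 1.92, adjusted p = 0.0194) and the repair enzyme Mgmt (log2 1.28, adjusted p = 0.0244). Single libraries moved this count, which was 9 without WT 3, 7 without WT 1, 3 without KO 3, 2 without WT 2, 1 without KO 1 and 0 without KO 2 (9 higher at an unadjusted p under 0.05 in that fit).

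A list of 40 p53 regulators and cofactors gave 39 tested genes, of which 1 rose and 1 fell, each 2.56%, beside 5.75% higher and 3.49% lower of all genes tested. It was likewise chosen with earlier results of these data known. The p53 relative Trp73 went from 0.249, 0.438 and 0.518 CPM in WT to 1.34, 1.01 and 1.06 CPM in KO. KO was above WT in every library at a low level (log2 1.49 ± 0.33 SE, edgeR adjusted p = 0.0276). Rchy1 (Pirh2), a ubiquitin ligase of p53, was 120.4, 111 and 107 CPM in WT and 79.7, 90.7 and 88.7 CPM in KO (log2 -0.39 ± 0.10 SE, edgeR adjusted p = 0.0489). Its groups did not overlap. The median log2 fold change of this list was 0.05. Without WT 1 or WT 3, 4 genes of the list were called higher, and without any one of WT 2, KO 1, KO 2 or KO 3 none was (5 or 6 higher at an unadjusted p under 0.05). The share of all genes at that unadjusted p was not counted in these fits.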

How the data were processed

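The authors deposited 1 table per library with estimated counts, TPM and effective lengths of 142647 transcripts. Per the submitters' processing notes, kallisto 0.44.0, DESeq2 and mouse build GRCm38 (mm10) were used; the sources used here do not give the index annotation or strand setting. kallisto splits reads that fit several transcripts, so the deposited estimated counts are not whole and the deposited TPM values are scaled within each library. Reads were pairs of 50 bp. Transcripts were matched to GENCODE vM21 (99.1%, holding at least 99.7% of counts), rounded sums of estimated counts over the transcripts of a gene were made, and genes were tested with edgeR 4.0.16 (R 4.3.3; TMM, filterByExpr, robust quasi-likelihood fit, 3 against 3 libraries, no covariates). CPM values are estimated counts scaled to the library total of the genes that passed the filter times its TMM factor. Transcript shares were tested with limma 3.58.1 (pseudocount 1, mean of at least 10 counts). P-values were adjusted by Benjamini-Hochberg over all genes or transcripts, threshold 0.05. Scripts were tested on simulated data. With 200 of 17610 genes changed, the gene test recovered 118 and also called 13 unchanged genes, so a lack of a call does not show equal levels. The share of false calls in this 1 simulated set was above 0.05, so calls near the threshold are not firm either. DESeq2 1.42.0, limma on log2(TPM + pseudocount), other scalings, filters, length and GC offsets and left-out libraries were alternatives. No library pair held identical values. Every member was named, in the further lists up to 8 called genes per direction. The members and lists were chosen with earlier results of these data known.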

Additional observations from a re-analysis of the deposited data

How the results depend on the processing

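Of the 202 alternative values for the 12 called members, 142 kept direction and call, 60 kept direction and lost the call, and 0 reversed. Reversals were hardly possible for these members, since their groups did not overlap. Of the 357 values for the 21 members that did not pass, 327 kept both, 9 passed and 21 reversed. Members called higher numbered 10, and 6 with a replicate block, 1 by limma on log2(TPM + 1) without a filter on low values (16 at an unadjusted p under 0.05) and 4 to 14 with 1 library left out. Members called lower numbered 2, and 1 with the block, with the length offset and by limma on log2(TPM + 1) or log2(TPM + 0.1), 0 by limma without the filter (2 unadjusted), and 1 to 2 with 1 library left out. Further targets called higher numbered 6, and 0 by limma without the filter (11 unadjusted) and 0 to 9 with 1 library left out. Regulators and cofactors called higher numbered 1, and 2 with no filter on low counts, with the GC offset and by DESeq2, 0 with the block (8 unadjusted), with the length offset (8) and by the 3 limma fits (7, 7 and 8), and 0 to 4 with 1 library left out. Called lower was 1, and 0 with no count filter (3 unadjusted), with the block (2), with the length offset (2) and by the 3 limma fits (2 each), and 0 to 2 with 1 library left out. Aen as the 1 member with changed usage was lost with a pseudocount of 0.1 (8 members with an unadjusted p under 0.05) and with the block (7), and the count was 0 to 1 with 1 library left out, the 1 being Aen through Aen-202 without WT 2. The causes were not tested. Unadjusted counts are not calls, and their share over all genes was not counted in the alternative fits. In the main fit, 3002 of 17610 genes had an unadjusted edgeR p under 0.05 without passing. Replicate numbers gave no clear pairing of the samples: deviations of same-numbered libraries correlated at -0.103, 0.0502 and 0.14, and WT 1 correlated best with KO 2 (0.154). Correlations this weak, from few libraries, cannot show whether samples were paired. The block moved the calls over all genes from 1626 to 1061. Over all genes, 1318 were called with the length offset, 2196 with the GC offset, 2496 by DESeq2, 942 by limma on log2(TPM + 1) and 210 by limma without the filter. The share of higher calls was 62.2%, 52.6% with the GC offset and 78.1% by limma without the filter. Log2 fold changes that reversed were all of members that did not pass, and none passed where its sign was reversed. With 1 library left out, Ccng1 lay between -0.0032 (without WT 3; -0.0003 without KO 3) and 0.1825, Btg2 between -0.3647 and 0.1585 (without WT 3), Ckap2 between -0.0592 (without WT 2; -0.0467 without WT 3 and -0.026 without KO 3) and 0.1434, Sesn3 between -0.116 (without KO 3) and 0.1681, Ddit4 between -0.1274 (without WT 2; -0.1065 without WT 1) and 0.445, Rps27l between -0.2146 and 0.0326 (without WT 1), and Xpc between -0.0559 (without WT 1) and 0.1922. Ckap2 was -0.0008 with DESeq2's size factors, -0.0022 with upper-quartile scaling, -0.0528 with the length offset and -0.0046 by DESeq2. With the GC offset Ddit4 was -0.0947 and Xpc -0.0259. Rrm2b was 0.0609 with the length offset, 0.0995 by limma on log2(TPM + 1) with or without the filter, and 0.1147 on log2(TPM + 0.1). With all 6 libraries, no member with a difference smaller than that of Ercc5 (log2 0.42) passed, and genes at few counts, such as Eda2r and Gdf15, could not be read firmly.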
